A study of Mus musculus with 16 samples.

Results

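Ryr2, Atp2a2, Pln, Casq2, Trdn, Jph2, Slc8a1 and Camk2d encode the machinery that moves calcium in and out of the sarcoplasmic reticulum of heart muscle cells. These 8 genes, of 21887 protein-coding genes on the autosomes and sex chromosomes, were chosen by name, and every peak that overlapped the gene body or the 5 kb on either side of it was taken. The peaks come from ChIP-seq, in which an antibody pulls down a protein together with the DNA it is bound to and that DNA is sequenced, on ventricles of mice at postnatal day 15. An antibody to Meis1/2 and an antibody to Hoxb13 were each used on 2 libraries from mice given paromomycin and neomycin together (Paro/Neo) and on 2 libraries from mice given vehicle, which was PBS. Paro/Neo was injected intraperitoneally at 150 mg/kg, 2 times a day, and injections began at postnatal day 7 and went on for 7 days in both groups. The sources used here do not state strain, genotype or sex of the mice. The labels assign 2 hearts to a sample as duplicates, which may mean a pool or a heart per library, so each p-value below covers only the spread between these libraries. The 8 inputs were not analysed here. The study compared the drug pair with vehicle for the binding of both factors.

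Calcium that enters a heart muscle cell opens the ryanodine receptor (Ryr2), the release channel of the sarcoplasmic reticulum, and the released calcium starts contraction. The pump SERCA2 (Atp2a2), restrained by phospholamban (Pln), returns calcium to the store, and the sodium-calcium exchanger (Slc8a1) removes it from the cell. Calsequestrin (Casq2) buffers calcium inside the store, triadin (Trdn) ties it to the channel, junctophilin (Jph2) holds the store against the plasma membrane, and the kinase CaMKII delta (Camk2d) phosphorylates the channel and phospholamban. Both Meis1 and Hoxb13 bind DNA through a homeodomain, and both are known for their part in the exit of mouse heart muscle cells from the cell cycle after birth.

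Promoter sequences, from the RefSeq table of GRCm38.p6, matched 6 of the 8 genes, not Atp2a2 and Trdn. A window of 250 bases upstream of the transcript start was searched on both strands for the core of sites of the MEIS factors, TGACAG. It was also searched for TGATTNA, bound by PBX or MEIS with a HOX protein, and for CAATAAA, the core of HOXB13 sites. The heart factors of the GATA family were represented by the letters AGATAA, and those of the TEAD family by GGAATG. Jph2 is shown because its promoter was the only one of the 6 covered by a Meis1 peak, and Pln, Casq2 and Slc8a1 because their windows held a motif. For Jph2 (chr2:163398050-163398243, minus strand) the 56 bases of the window that lie within the annotated gene were left out, and the capitals mark bases under the Meis1 peak of vehicle replicate 2. For Pln (chr10:53337436-53337685, plus strand), Casq2 (chr3:102086165-102086414, plus strand) and Slc8a1 (chr17:81738388-81738637, minus strand) the capitals mark the motif.
Jph2: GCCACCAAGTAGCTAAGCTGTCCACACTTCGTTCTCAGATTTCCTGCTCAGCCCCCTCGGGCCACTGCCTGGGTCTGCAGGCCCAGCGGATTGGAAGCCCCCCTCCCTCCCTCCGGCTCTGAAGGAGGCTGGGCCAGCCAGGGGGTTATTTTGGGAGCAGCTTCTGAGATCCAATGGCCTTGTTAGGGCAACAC
Pln: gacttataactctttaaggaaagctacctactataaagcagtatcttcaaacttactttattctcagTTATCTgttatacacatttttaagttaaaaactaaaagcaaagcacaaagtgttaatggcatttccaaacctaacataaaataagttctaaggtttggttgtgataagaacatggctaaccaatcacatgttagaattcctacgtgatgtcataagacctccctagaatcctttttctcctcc
Casq2: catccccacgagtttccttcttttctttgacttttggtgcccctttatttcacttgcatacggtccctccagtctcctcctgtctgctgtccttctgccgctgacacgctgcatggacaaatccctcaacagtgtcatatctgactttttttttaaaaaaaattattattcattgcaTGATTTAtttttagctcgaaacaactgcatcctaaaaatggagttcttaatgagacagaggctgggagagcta
Slc8a1: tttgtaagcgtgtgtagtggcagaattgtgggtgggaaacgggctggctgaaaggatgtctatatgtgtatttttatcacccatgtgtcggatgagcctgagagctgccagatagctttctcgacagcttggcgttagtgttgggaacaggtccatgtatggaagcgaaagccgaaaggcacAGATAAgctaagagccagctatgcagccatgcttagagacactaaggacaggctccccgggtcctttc

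In the Pln window, TTATCT is AGATAA read on the opposite strand, 183 to 178 bases upstream of the start. The TGATTTA of Casq2 lies 73 to 67 bases upstream and the AGATAA of Slc8a1 68 to 63 bases upstream. Of 32851 promoter windows of the same length in the table, AGATAA was held by 9.99% and TGATTNA by 9.11%. None of the 6 windows held TGACAG (15.9% of all windows), CAATAAA (4.20% of all windows) or GGAATG (12.6% of all windows). No overlap between motifs occurred in the printed windows. Each of the 6 windows was touched by a peak of Hoxb13 Paro/Neo replicate 2, and only that of Jph2 by any other library, namely Hoxb13 vehicle replicate 1 and Meis1 vehicle replicate 2. Of all 32851 windows, those lists touched 22.2% (Hoxb13 Paro/Neo replicate 2), 10.2% (Hoxb13 vehicle replicate 1) and 0.919% (Meis1 vehicle replicate 2).

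The lists differed widely in length. Meis1 lists held 1541 and 1025 peaks in Paro/Neo replicates 1 and 2, against 3529 and 3176 in vehicle replicates 1 and 2. Hoxb13 lists held 821 and 16963 peaks in Paro/Neo, against 5202 and 1121 in vehicle, so Hoxb13 Paro/Neo replicate 2 stood apart. For the calcium cycling genes, the counts with a shared Hoxb13 region and the peak-number differences are also given without it. The Hoxb13 counts over marker genes and over further calcium genes below include it. Sequencing depth is unknown, the antibodies were run as separate sets and cannot be told apart from them, and in whole ventricles fewer cells of a type and less binding per cell cannot be told apart. The deposited file names of the second Meis1 replicates carry letters of the opposite group; the labels were followed. Regions called in at least 2 libraries lay at 0 of 8 fibroblast, 2 of 8 endothelial and 0 of 8 macrophage marker genes for Meis1, and at 1, 4 and 1 of 8 for Hoxb13. Such a region lay at 6.19% of all genes for Meis1 and at 22.9% for Hoxb13. Endothelial genes with a Hoxb13 peak numbered 0 and 7 of 8 in Paro/Neo (4.20% and 46.5% of all genes), against 4 and 0 in vehicle (24.2% and 5.79%). The endothelial genes with a Meis1 region were Pecam1 and Tek, and their part in the results was not tested.

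Hoxb13 peaks lay at most of the calcium cycling genes and Meis1 peaks at fewer. A region, made by merging peaks that shared at least 1 bp, was called in a library that had a peak in it. Ryr2, Atp2a2, Pln, Trdn and Jph2, 5 of 8, held a Hoxb13 region called in all 4 libraries, a rule met by 2.84% of all protein-coding genes and by 2.70% of the 6007 genes of at least 40 kb. Of the 8, all but Pln are that long. Ryr2, Trdn, Slc8a1 and Camk2d are each longer than at least 96.7% of all protein-coding genes. The limit of 40 kb therefore does not match their length for either antibody. Whether genes as long hold regions as often was not tested. Without Paro/Neo replicate 2 the same 5 genes held a region in all 3 remaining libraries, as did 2.77% of all genes. At least 2 Hoxb13 libraries shared a region at 7 of 8 genes, all but Slc8a1 (22.9% of all genes and 26.5% of those of at least 40 kb). Without Paro/Neo replicate 2, which drops Camk2d, at least 2 of the 3 remaining libraries shared a region at 6 of 8 genes and at 6.56% of all genes. For Meis1, Ryr2, Jph2 and Slc8a1 held a region in at least 2 libraries, 3 of 8 (6.19% of all genes and 14.4% of those of at least 40 kb), and Jph2 was the only 1 of 8 with a region in all 4 (1.75% of all genes and 4.21% of those of at least 40 kb). Ryr2 and Jph2, 2 of 8, held a region of each antibody in at least 2 libraries (2.70% of all genes).

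In single libraries, Meis1 peaks lay at 2 and 3 of the 8 genes in Paro/Neo replicates 1 and 2 (4.07% and 2.83% of all genes), against 6 and 3 in vehicle replicates 1 and 2 (8.59% and 8.21%). Hoxb13 peaks lay at 6 and 8 genes in Paro/Neo (4.20% and 46.5% of all genes), against 7 and 6 in vehicle (24.2% and 5.79%). The 8 genes together held 3 and 4 Meis1 peaks in Paro/Neo, against 9 and 8 in vehicle, and 16 and 193 Hoxb13 peaks in Paro/Neo, against 53 and 14 in vehicle. Their Hoxb13 peaks had median widths of 624 and 849 bp in Paro/Neo, against 672 and 1037 bp in vehicle, while the whole lists had 348 and 495 bp in Paro/Neo and 412 and 394 bp in vehicle. Their Meis1 peaks were narrow, with medians from 221 to 303 bp over the 4 libraries, and lists with medians from 255 to 260 bp.

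**Figure D1:**
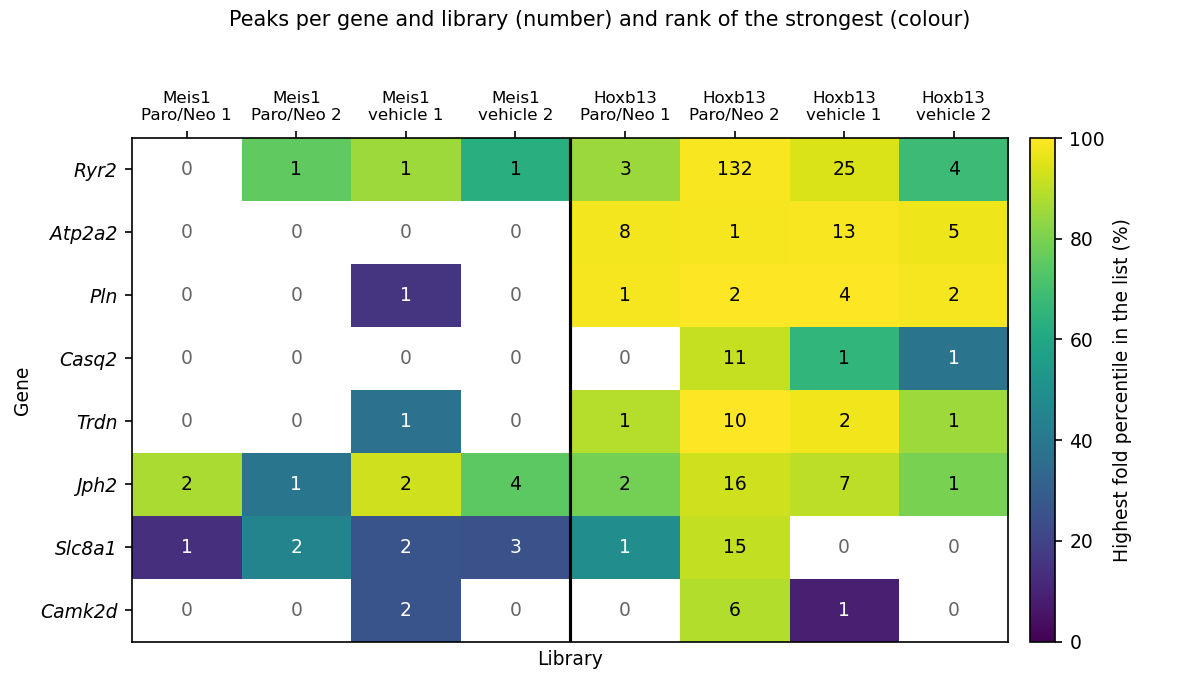
Number of peaks (digits) at each of the 8 genes (rows) in each of the 8 libraries (columns); the colour gives the percentile of the gene's strongest peak among all peaks of that list, by the deposited fold enrichment, and white means no peak. The Hoxb13 columns are filled at Atp2a2 and Pln in all 4 libraries with percentiles from 97.6 to 99.9, while the Meis1 columns are filled in all 4 libraries at Jph2 and Slc8a1.

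Ryr2, the release channel and the longest of the 8 genes (chr13:11553099-12106945, minus strand, 553.8 kb), held peaks of both antibodies. A Hoxb13 stretch of 1795 bp common to all 4 libraries (chr13:11547242-11549036) lay 4063 bp past the 3′ end. Peaks are ranked here by the authors' fold enrichment within their own list, and a percentile is the share of the list's peaks with a fold no higher. The 3′ peak held ranks 125 of 821 and 159 of 16963 in Paro/Neo replicates 1 and 2, against 297 of 5202 and 353 of 1121 in vehicle replicates 1 and 2. These are percentiles of 84.9 and 99.1 in Paro/Neo, against 94.3 and 68.6 in vehicle, so the peak stood in the upper part of every list.

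Hoxb13 peaks at Ryr2 numbered 3 and 132 in Paro/Neo, against 25 and 4 in vehicle. The 132 peaks of Paro/Neo replicate 2 were the most at any protein-coding gene in that list and spanned 46.6% of the gene and its flanks, a share that 47 genes exceeded. The other libraries covered 0.315% in Paro/Neo replicate 1, against 2.62% and 0.480% in vehicle. Many genes exceeded these shares, 782 in Paro/Neo replicate 1, against 1439 and 1009 in vehicle. In vehicle replicate 1, with 25 peaks, 1 gene held more peaks, and in vehicle replicate 2, with 4 peaks, 6 genes did. Ryr2 is longer than 99.1% of genes, and these peak numbers were not scaled by length. The many peaks of the long library thus ran through the whole gene body, while the stretch shared by all 4 libraries was the 3′ one. At the 5′ end, a Hoxb13 peak was called in Paro/Neo replicate 2 (chr13:12103466-12107138), against vehicle replicate 1 (chr13:12105823-12106370), and in neither of the other libraries.

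Meis1 peaks at Ryr2 lay near its 5′ end. A single peak 2.42 to 2.47 kb inside the gene (region chr13:12104333-12104624) was called in Paro/Neo replicate 2 at rank 250 of 1025, against vehicle replicate 1 at 512 of 3529 and vehicle replicate 2 at 1191 of 3176. Paro/Neo replicate 1 had none. Percentiles were 75.7 in Paro/Neo replicate 2, against 85.5 and 62.5 in vehicle. No other Meis1 peak lay within 5 kb of this gene in any of the 4 libraries.

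**Figure D2:**
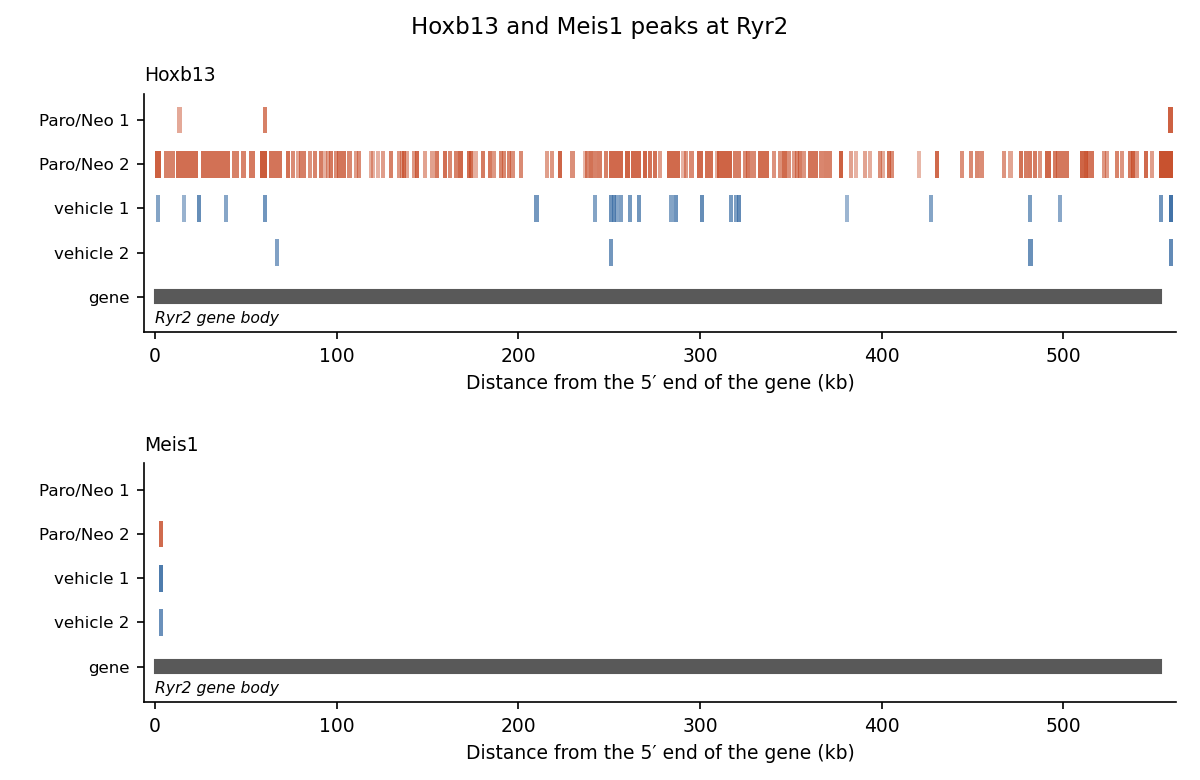
Peaks at Ryr2 for Hoxb13 (upper panel) and Meis1 (lower panel) by distance from the 5′ end of the gene in kb, with a row per library, Paro/Neo in red and vehicle in blue; a darker bar has a higher fold percentile in its list, and bars too narrow to see are drawn at a minimum width. All 4 Hoxb13 libraries have a peak past the 3′ end at the right edge, and 3 Meis1 libraries have a single peak 2.42 to 2.47 kb from the 5′ end.

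Atp2a2, the calcium pump (chr5:122453513-122502225, 48.7 kb, strand not given by the tables used), carried Hoxb13 peaks over much of its length. The strongest peak, which held the sequence just outside the lower-coordinate end in every list, ranked 17 of 821 and 220 of 16963 in Paro/Neo replicates 1 and 2, against 61 of 5202 and 28 of 1121 in vehicle replicates 1 and 2. Its percentiles were 98.1 and 98.7 in Paro/Neo, against 98.8 and 97.6 in vehicle, so it stood in the top 5% of all 4 lists. The stretch common to all 4 libraries at that peak spans 2792 bp (chr5:122450488-122453279) and ends 234 bp before the gene. A further 4 common stretches of 94 to 716 bp lay within the gene body.

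The number of Hoxb13 peaks at Atp2a2 was 8 and 1 in Paro/Neo, against 13 and 5 in vehicle. The lone peak of Paro/Neo replicate 2 was 53867 bp wide (chr5:122449173-122503039), the 4th widest of its list, and held the whole gene. Peaks covered 12.5% and 91.7% of the gene and flanks in Paro/Neo, against 51.7% and 12.5% in vehicle. Of all protein-coding genes, 25 and 5 were covered to a larger share in Paro/Neo, against 6 and 37 in vehicle. A low peak number therefore did not stand for little covered sequence here. Meis1 had no peak at Atp2a2 in any of the 4 libraries.

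Pln, which encodes the inhibitor of that pump (chr10:53337686-53345999, plus strand, 8.31 kb), held Hoxb13 peaks ranked close to the top of every list. The gene lies inside Cep85l (chr10:53273441-53379883), and a peak there cannot be assigned to either gene. Ranks were 12 of 821 and 18 of 16963 in Paro/Neo replicates 1 and 2, against 13 of 5202 and 18 of 1121 in vehicle replicates 1 and 2. Deposited folds of these peaks were 7.43 and 8.36 in Paro/Neo, against 9.02 and 6.48 in vehicle. Percentiles were 98.7 and 99.9 in Paro/Neo, against 99.8 and 98.5 in vehicle, and of the 8 genes only Pln and Atp2a2 stood in the top 5% of all 4 Hoxb13 lists. The stretch common to all 4 libraries spans 3618 bp across the 3′ end (chr10:53343615-53347232).

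Around this stretch the lists differed in how far the called peaks reached. Paro/Neo replicate 1 had that peak alone, of 3710 bp. Paro/Neo replicate 2 had 2 peaks, of which the larger ran over 13409 bp and covered the promoter. Vehicle replicate 1 had 4 peaks and vehicle replicate 2 had 2. The covered share of the gene and its flanks was 20.3% and 76.6% in Paro/Neo, against 46.9% and 27.1% in vehicle, and the ranges overlapped. Within 5 kb, Meis1 had 1 peak in 1 library, vehicle replicate 1 (chr10:53335270-53336139), at a percentile of 15.6.

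**Figure D3:**
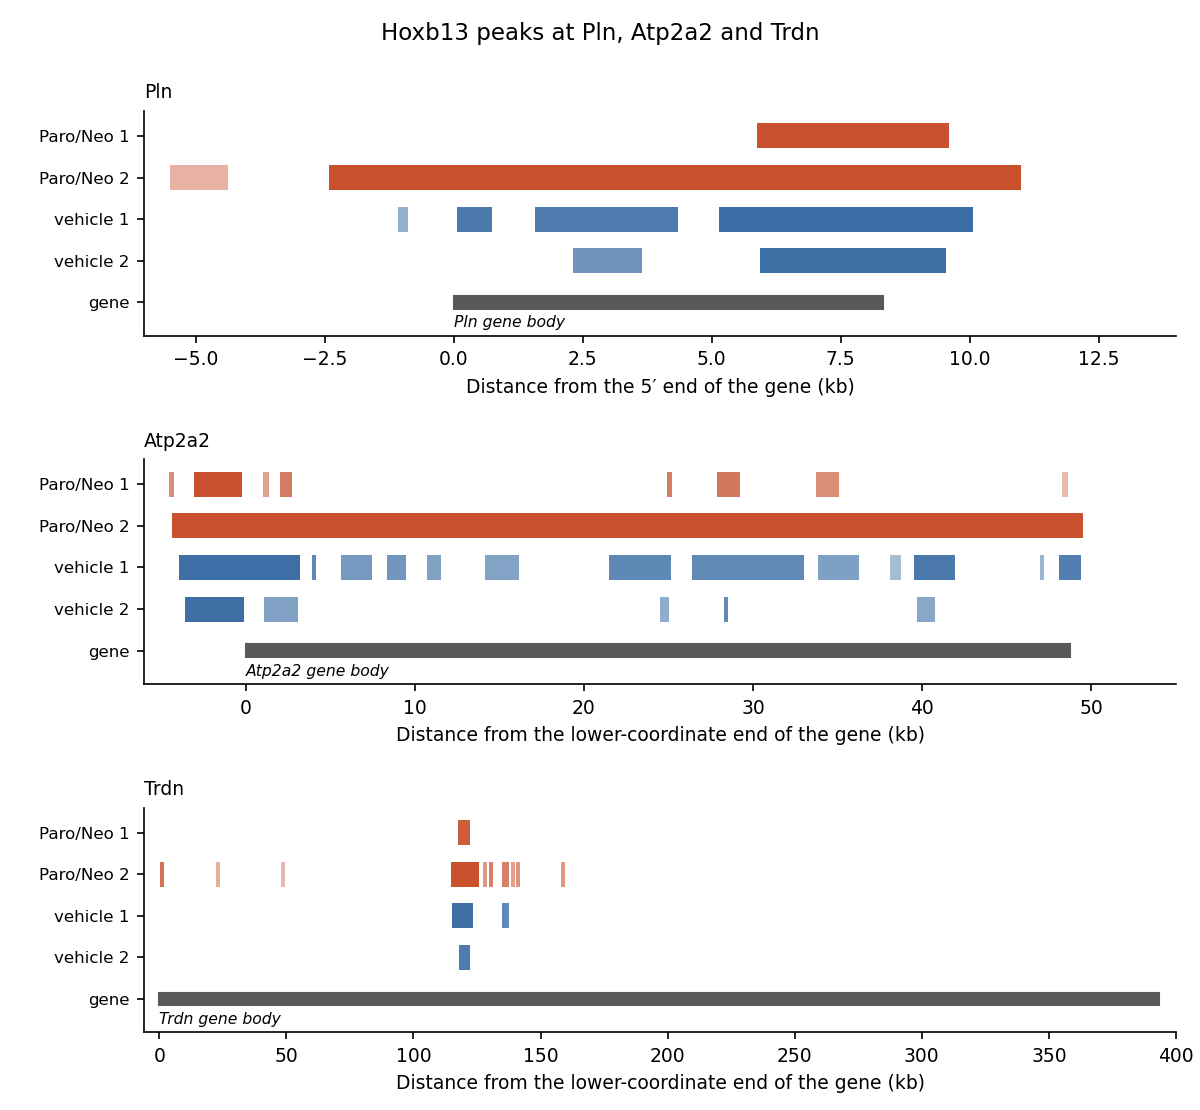
Hoxb13 peaks at Pln, Atp2a2 and Trdn by distance in kb from the 5′ end (Pln) or the lower-coordinate end (Atp2a2, Trdn) of the gene, with a row per library, Paro/Neo in red and vehicle in blue; a darker bar has a higher fold percentile, and the narrowest bars are drawn at a minimum width. The darkest bars of the 4 libraries overlap at the 3′ end of Pln, at the lower end of Atp2a2 and within Trdn, and a bar of 53.9 kb from Paro/Neo replicate 2 spans Atp2a2.

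Casq2, the calcium buffer of the store (chr3:102086415-102146514, plus strand), had a Hoxb13 peak past its 3′ end in 3 libraries. The peak ranked 1468 of 16963 in Paro/Neo replicate 2 (chr3:102146837-102151014), against 1780 of 5202 in vehicle replicate 1 (chr3:102148215-102150948) and 690 of 1121 in vehicle replicate 2 (chr3:102149337-102149936). Paro/Neo replicate 1 had no peak at the gene. Peak numbers were 0 and 11 in Paro/Neo, against 1 and 1 in vehicle. The 10 further peaks of Paro/Neo replicate 2 had no counterpart in any other Hoxb13 list. Meis1 had no peak at Casq2.

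Trdn, which encodes the protein linking calsequestrin to the channel (chr10:33083483-33476709, 393 kb, strand not given), carried a wide Hoxb13 peak inside the gene body. It ranked 91 of 821 and 66 of 16963 in Paro/Neo replicates 1 and 2, against 110 of 5202 and 167 of 1121 in vehicle replicates 1 and 2. The peak measured 4875 and 10953 bp in Paro/Neo, against 7943 and 4552 bp in vehicle, among the 24 widest of each list. All 4 libraries shared 4347 bp of it (chr10:33201362-33205708), about 120 kb from the lower-coordinate end. Paro/Neo replicate 2 added 9 peaks and vehicle replicate 1 added 1, and the other libraries none. A single Meis1 peak (chr10:33256341-33256549) was called in vehicle replicate 1 at a percentile of 37.5, at the end of the long non-coding RNA gene D830005E20Rik.

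Jph2, the junction protein (chr2:163336242-163398049, minus strand, 61.8 kb), was the gene of the 8 with a region of each antibody in all 4 libraries. The Meis1 region lay 34.7 kb from the 5′ end, inside the gene and inside the long non-coding RNA gene Gm35750 (chr2:163356334-163365260). The peaks there were 303 and 261 bp wide in Paro/Neo replicates 1 and 2, against 316 and 288 bp in vehicle replicates 1 and 2, and shared 258 bp (chr2:163363181-163363438). Percentiles were 87.3 and 38.7 in Paro/Neo, against 92.9 and 74.9 in vehicle. A second Meis1 region (chr2:163360966-163361241) was called in Paro/Neo replicate 1 at a percentile of 39.2, against 75.1 and 2.24 in vehicle replicates 1 and 2. The call of vehicle replicate 2 was near the bottom of its list, at rank 3106 of 3176 and a −log10 q of 1.53. Vehicle replicate 2 had 2 more peaks, including that at the promoter printed above, of percentile 53.5.

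The common Hoxb13 stretch of Jph2 lay elsewhere, 3098 bp past the 3′ end (654 bp, chr2:163332491-163333144). It ranked 174 of 821 and 1241 of 16963 in Paro/Neo, against 523 of 5202 and 225 of 1121 in vehicle. Peaks numbered 2 and 16 in Paro/Neo, against 7 and 1 in vehicle, and covered 1.31% and 41.7% in Paro/Neo, against 6.08% and 1.39% in vehicle. The peaks over the promoter printed above had percentiles of 86.9 in Paro/Neo replicate 2, against 18.4 in vehicle replicate 1.

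**Figure D4:**
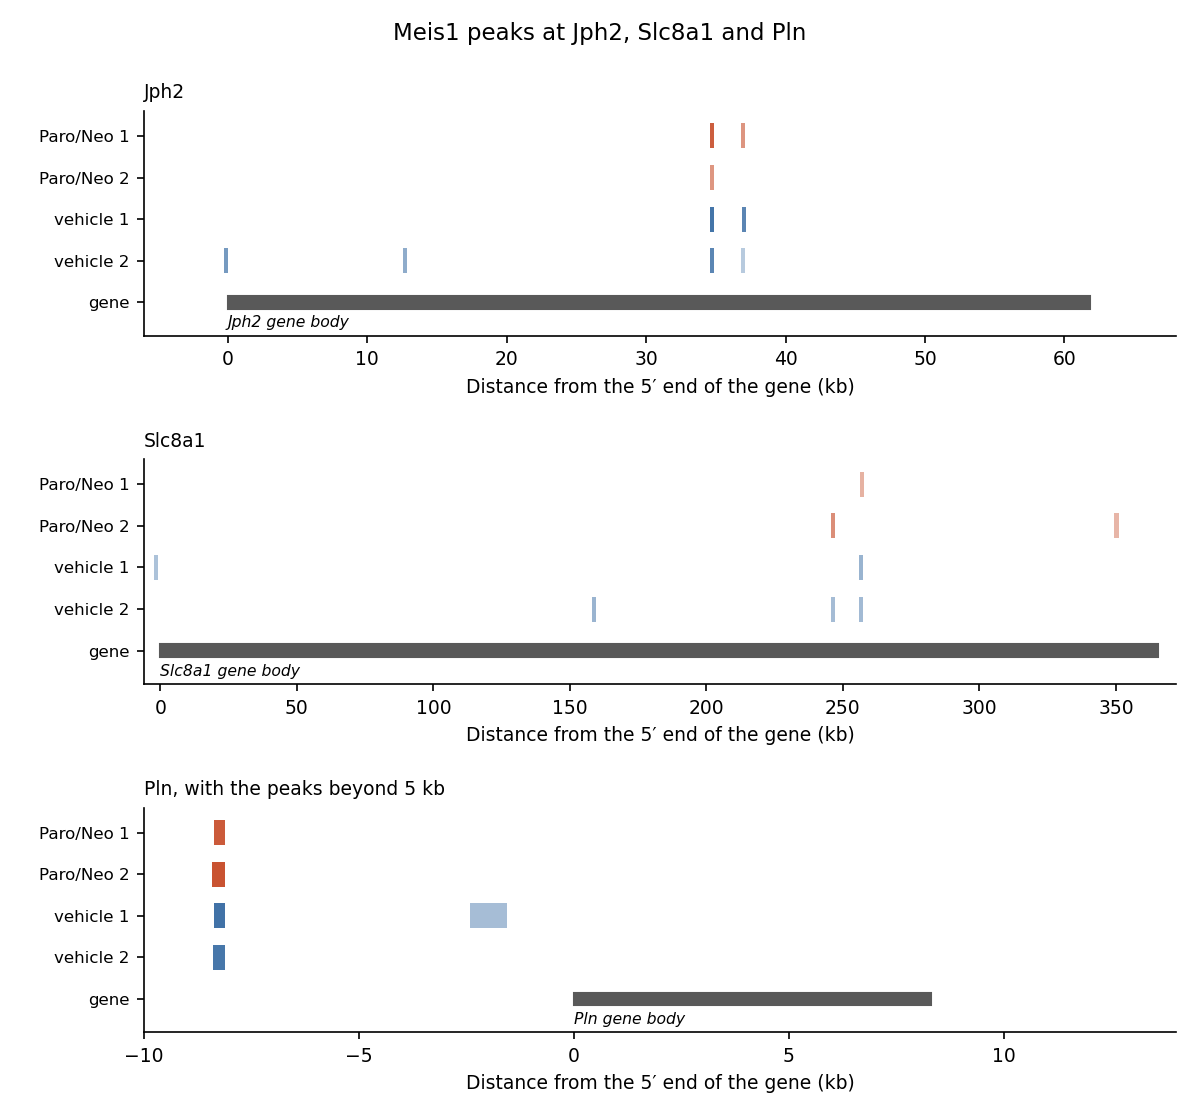
Meis1 peaks at Jph2, Slc8a1 and Pln by distance from the 5′ end of the gene in kb, with a row per library, Paro/Neo in red and vehicle in blue; a darker bar has a higher fold percentile, narrow bars are drawn at a minimum width, and the Pln panel also shows peaks beyond 5 kb. All 4 libraries have a peak 34.7 kb into Jph2, no region is called in all 4 at Slc8a1, and all 4 have a peak 8.11 to 8.12 kb before Pln.

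Slc8a1, the exchanger (chr17:81373105-81738387, minus strand, 365 kb), had weak Meis1 peaks in all 4 libraries, though not at a common place. Meis1 peaks numbered 1 and 2 in Paro/Neo, against 2 and 3 in vehicle. The region at chr17:81481815-81482491 was called in Paro/Neo replicate 1 at a percentile of 13.8, against 25.8 and 18.8 in vehicle replicates 1 and 2. A second region (chr17:81492484-81492849) was called in Paro/Neo replicate 2 at a percentile of 45.1, against 16.8 in vehicle replicate 2. Every Meis1 peak at this gene stood in the lower part of its list.

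Hoxb13 peaks at Slc8a1 were called in both Paro/Neo libraries and in neither vehicle library, 1 and 15 against 0 and 0. The peak of Paro/Neo replicate 1 (chr17:81628253-81628573, rank 418 of 821) was not overlapped by any of the 15 peaks of Paro/Neo replicate 2, the strongest of which ranked 1534 of 16963 (chr17:81377726-81377977). The covered share was 0.0855% and 1.78% in Paro/Neo. No place in this gene was thus called in both Paro/Neo libraries. Once peaks below a −log10 q of 2 were dropped, Paro/Neo replicate 1 had none and Paro/Neo replicate 2 had 5, against 0 and 0 in vehicle, so the gene was then called in 1 library.

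Camk2d, the kinase (chr3:126595487-126846326, plus strand, 251 kb), held few peaks outside the longest lists. Hoxb13 peaks numbered 0 and 6 in Paro/Neo, against 1 and 0 in vehicle. A peak centred 1.61 to 1.69 kb inside the 5′ end ranked 1976 of 16963 in Paro/Neo replicate 2 (chr3:126596748-126597450), against 4743 of 5202 in vehicle replicate 1 (chr3:126597076-126597272). The promoter window searched for Camk2d (chr3:126596701-126596950) lies inside the annotated gene. The Paro/Neo replicate 2 peak given here is the one that touched it. Meis1 had 2 peaks in vehicle replicate 1, at percentiles of 26.1 and 13.1, and none in the other libraries.

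Paro/Neo and vehicle libraries overlapped in peak number at 7 of the 8 genes for Hoxb13 and at each of the 6 genes with a Meis1 peak. For Meis1 the peak number was lower by 0.5 to 1.5 on average in Paro/Neo than in vehicle at these 6 genes. Jph2 averaged 1.5 peaks in Paro/Neo and 3 in vehicle, and Slc8a1 1.5 in Paro/Neo and 2.5 in vehicle, each with an exact two-sided permutation p of 0.667 (adjusted p = 1 over 2572 genes). The other 4 had an exact permutation p of 1. At equal list length, where each list kept the 1025 peaks of highest fold, none of the 6 was lower in Paro/Neo: the difference was 0 at Ryr2, Pln, Trdn, Jph2 and Camk2d and 1 at Slc8a1. Fewer peaks in both Paro/Neo libraries than in both vehicle libraries was met by 0 of 6 of these genes and by 21.9% of the 2572 genes with a Meis1 peak, beside whole lists that were shorter in both Paro/Neo libraries. More peaks in both Paro/Neo libraries was met by 0 of 6 and by 0.194% of those genes.

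For Hoxb13 the difference turned negative without the long list of Paro/Neo replicate 2 at 5 of the 8 genes. Ryr2 averaged 67.5 peaks in Paro/Neo and 14.5 in vehicle (exact permutation p = 1), and without that library the difference of 53 became −11.5. Casq2, Trdn, Jph2 and Camk2d had differences from 2.5 to 5 in favour of Paro/Neo that also turned negative without it, at −0.5 to −2, and their exact permutation p over all 4 libraries was 0.667 at Jph2 and 1 at the others. Atp2a2 averaged 4.5 in Paro/Neo and 9 in vehicle, and Pln 1.5 in Paro/Neo and 3 in vehicle, each with an exact permutation p of 0.667. Without Paro/Neo replicate 2 the difference of −4.5 at Atp2a2 became −1 and that of −1.5 at Pln became −2. Slc8a1 averaged 8 in Paro/Neo and 0 in vehicle, with an exact two-sided permutation p of 0.333, the smallest that 2 against 2 libraries can give (adjusted p = 1 over 10420 genes). That difference of 8 became 1 without Paro/Neo replicate 2 and 15 without Paro/Neo replicate 1. It was 2.5 at −log10 q of at least 2 and 0.5 at equal list length (821 peaks), each with an exact permutation p of 1. More peaks in both Paro/Neo libraries than in both vehicle libraries was met by 1 of 8 of these genes, Slc8a1, and by 0.298% of the 10420 genes with a Hoxb13 peak. A peak in both Paro/Neo libraries and in neither vehicle library was met by Slc8a1 and by 0.278% of genes, and fewer peaks in both Paro/Neo libraries by 0 of 8 and by 0.0864% of genes.

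**Figure D5:**
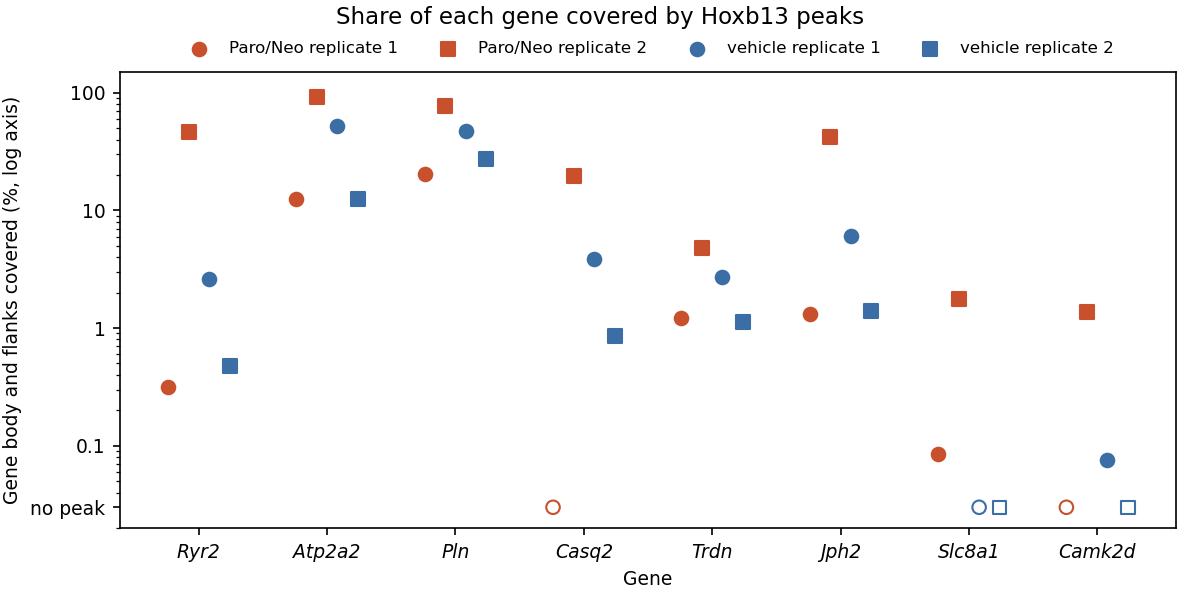
Share of each gene body and its 5 kb flanks covered by Hoxb13 peaks (%, log axis) in each library, with Paro/Neo in red and vehicle in blue, circles for replicate 1 and squares for replicate 2; open symbols at the bottom mark libraries with no peak. Paro/Neo replicate 2 is the highest at all 8 genes, and Paro/Neo replicate 1 lies at or below both vehicle libraries at Ryr2, Atp2a2, Pln, Casq2, Jph2 and Camk2d.

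The strongest Hoxb13 peak of a list lay near the 3′ end at several of the genes. Among genes of at least 40 kb with a known strand, the midpoint of the strongest Hoxb13 peak was within 5 kb of the 3′ end at 20.4% and 15.5% in Paro/Neo, against 12.3% and 15.9% in vehicle, and within 5 kb of the 5′ end at 52.5% to 69.5% over the 4 libraries. Of the calcium cycling genes that entered, the 3′ end held it at 2 of 3 (Ryr2, Jph2) and 4 of 5 (Ryr2, Casq2, Jph2, Slc8a1) in Paro/Neo, against 2 of 4 and 2 of 3 (Casq2, Jph2 in both) in vehicle. The 5′ end held it at 0 of 3 and 1 of 5 in Paro/Neo, against 1 of 4 and 0 of 3 in vehicle, the gene being Camk2d both times. The peak of Ryr2 had its midpoint at 5.21 and 5.13 kb in the vehicle libraries, just outside that limit. Pln is too short to enter and Atp2a2 and Trdn have no strand in the tables. For Meis1 the strongest peak lay near the 3′ end at none of these genes in any library, as at 5.05% to 7.03% of all such genes, and near the 5′ end at Ryr2 alone in 3 libraries, as at 11.2% to 16.2% of all such genes over the 4 libraries.

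The window of 5 kb left out some Meis1 peaks near these genes. All 4 libraries had a Meis1 peak 8.11 to 8.12 kb upstream of Pln, inside Cep85l. It ranked 136 of 1541 (chr10:53329325-53329573) and 26 of 1025 (chr10:53329257-53329574) in Paro/Neo, against 159 of 3529 (chr10:53329303-53329569) and 294 of 3176 (chr10:53329290-53329578) in vehicle. Percentiles were 91.2 and 97.6 in Paro/Neo, against 95.5 and 90.8 in vehicle, in each of the 4 lists higher than that of any Meis1 peak within 5 kb of the 8 genes. Near Atp2a2, 8.56 to 8.71 kb beyond its higher-coordinate end, Meis1 peaks were called in Paro/Neo replicate 1 at a percentile of 36.4, against 91.0 and 80.3 in vehicle. Just inside the window, 2.82 to 4.57 kb from the gene, lay 10 Hoxb13 peaks at 5 genes, among them the shared stretches of Ryr2 and Jph2, and just outside it, 5.39 to 8.42 kb away, lay 5 Hoxb13 peaks, all of Paro/Neo replicate 2.

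Some Meis1 peaks at the 8 genes overlapped Hoxb13 peaks of the long list. Of 24 Meis1 peaks, 16 overlapped a Hoxb13 peak by at least 1 bp: 3 of 3 at Ryr2, 8 of 9 at Jph2, 3 of 8 at Slc8a1, 1 of 1 at Pln, 1 of 2 at Camk2d and 0 of 1 at Trdn. A place called in several libraries is counted once for each, so these are not separate places. The 3 at Ryr2 form 1 region, and most of those at Jph2 lie under a single Hoxb13 peak of 9381 bp. In all 16 the partner included a peak of Paro/Neo replicate 2, and only at the Jph2 promoter was a second Hoxb13 library involved, so that without Paro/Neo replicate 2 the overlap was 1 of 24. Of all Meis1 peaks in the lists, 32.8% and 40.4% in Paro/Neo, against 31.9% and 34.0% in vehicle, overlapped a Hoxb13 peak. Without Hoxb13 Paro/Neo replicate 2 these shares were 6.88% and 11.2% in Paro/Neo, against 7.17% and 7.65% in vehicle. Regions of both antibodies called in at least 2 libraries overlapped at 1 of 8 genes, Ryr2, and at 1.18% of all genes. At Ryr2 only the Hoxb13 peak of Paro/Neo replicate 2 overlapped the Meis1 peaks. The peak of vehicle replicate 1, merged into the same Hoxb13 region, did not. Hoxb13 Paro/Neo replicate 2 also overlapped 15 of the 16 Hoxb13 peaks of Paro/Neo replicate 1 at the 8 genes, against 49 of 53 in vehicle replicate 1 and 14 of 14 in vehicle replicate 2.

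A further 52 genes of sarcoplasmic reticulum calcium handling and its regulation were counted by the same rules. For Meis1, 11 held a region in at least 2 libraries and 4 in all 4, namely Atp2b2, Camk2a, Cmya5 and Itpr1, beside 6.19% and 1.75% of all genes. Among genes of at least 40 kb these shares were 14.4% and 4.21%. Atp2b2, a calcium pump of the plasma membrane, had percentiles of 97.5 and 91.6 in Paro/Neo, against 94.0 and 98.9 in vehicle (region chr6:113795158-113795725). Bin1, which shapes the transverse tubules, Stim1, the calcium sensor of the store, Speg, a kinase of the junction, Pde3a, a phosphodiesterase, Tmem38b, a potassium channel of the store, and Akap6, an anchor of kinase A, held regions in 3 libraries with mean percentiles from 54.6 to 92.7. Paro/Neo replicate 2 was the list without that region at all of them but Tmem38b, where it was Paro/Neo replicate 1.

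For Hoxb13, 18 of the 52 genes held a region in at least 2 libraries (22.9% of all genes) and 3 in all 4, namely Camk2g, Atp2b1 and Calm3 (2.84%). Among genes of at least 40 kb these shares were 26.5% and 2.70%. Counted library by library, a Hoxb13 peak lay at 7 and 38 of the 52 genes in Paro/Neo (4.20% and 46.5% of all genes). In vehicle it lay at 20 and 4 (24.2% and 5.79%). Camk2g, another CaMKII gene, had percentiles of 74.5 and 98.6 in Paro/Neo, against 97.9 and 92.5 in vehicle (region chr14:20734115-20734837). Akap7 and Hax1, which bind phospholamban or its complex, Prkaca, the catalytic subunit of kinase A, Ppp1ca, a phosphatase subunit, and Itpr1, the inositol trisphosphate receptor, held regions in 3 libraries. The mean percentiles of the regions of these 8 genes ran from 52.0 to 90.9. Among the calcium cycling genes with a shared Hoxb13 region, those of Pln, Atp2a2 and Trdn averaged 99.2, 98.3 and 92.9, those of Ryr2 and Jph2 86.7 and 85.4, and those of Casq2 and Camk2d 65.2 and 48.6. Each mean covers only the libraries that called the region, which were 3 at Casq2, 2 at Camk2d and 4 at the others.

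Genes with the most similar pattern were sought over the 8 libraries by the mean absolute difference in the percentile of the strongest peak, counting 0 where a library had none. Atp2a2 came closest to AI597479 and Marveld1, at 0.263 and 0.277 percentile points, among 432 genes with peaks in the same libraries. Pln came closest to Krt78 and Hdgfl2, at 2.04 and 2.05 points, and Trdn to Nfic and Acvr1, at 1.48 and 3.18 points, each among 38 genes. Jph2 came closest to Grk6 and Mib1 (8.79 and 9.01 points, 43 genes), Ryr2 to Zbtb20 and Cobll1 (13.6 and 14.4 points, 6 genes), and Slc8a1 to Gpsm1 and Cap2 (11.6 and 14.6 points, no gene with the same libraries). Casq2 and Camk2d had peaks in fewer than 4 libraries and were not compared.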

How the data were processed

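Per the submitters' processing notes, the tools were Bowtie2, MACS2, HOMER, FastQC 0.11.5 and Picard 1.127, with build mm10; the sources used here do not state the caller's options, control or filters. The 8 deposited broadPeak lists, 1 per library, hold for each peak a fold enrichment (a ratio), −log10 p and −log10 q values, and a score that equals 10 times −log10 q rounded down in 100% of peaks and was not used. These are the authors' values; the weakest peaks have a q of 0.1. Depth is unknown.

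Gene positions came from RefSeq (GRCm38.p6, mm10 coordinates), with strand for 17492 genes and without exons, so exon, intron and UTR were not assigned. Peaks were matched to genes, merged and ranked in Python 3.11.15 with pandas 2.3.3 and numpy 2.4.6. The matching of peaks to genes was tested on simulated data. Peak numbers per gene were compared by exact two-sided permutation over 6 orders of the libraries, with Benjamini-Hochberg adjustment over all genes with a peak of that antibody. Ranks were not tested between lists. The mean percentile of a region is taken over only the libraries that called it. All 8 genes are named; of the 52 further genes, those with a region in at least 3 libraries of an antibody; and the 2 most similar genes for each gene with peaks in at least 4 libraries. The genes, lists and tests were chosen with earlier results of these data known.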

Additional observations from a re-analysis of the deposited data

How the results depend on the processing

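The settings were other flanks (none, 10 kb), −log10 q of at least 2, a stricter overlap and lists reduced to the shortest length (1025 Meis1 and 821 Hoxb13 peaks). Each library was also left out in turn. Of 39 counts of genes with a region, 33 stayed within 1.5 times, and 10 of 140 single-gene differences reversed. The 140 also include the exchanged second Meis1 replicates and the replicate blocks described below. A block changes only the p, so its differences could not reverse. A difference that fell to 0 was not counted as reversed. Counts within 1.5 times could still lose genes. At equal list length Hoxb13 regions in all 4 libraries lay at 4 genes (Jph2 lost). In at least 2 libraries they lay at 5 genes (Casq2 and Camk2d lost), and Meis1 regions at 2 (Slc8a1 lost). Hoxb13 regions in at least 2 libraries lay at 6 genes without flanks (Casq2 lost). They also lay at 6 without vehicle replicate 1 or Paro/Neo replicate 2 (Camk2d lost). With 10 kb flanks Meis1 regions in at least 2 libraries lay at 5 genes (Atp2a2 and Pln added) and in all 4 at 2 (Pln added). The count over all 4 was 1 to 2 with a library left out, adding Ryr2 without Paro/Neo replicate 1 and Slc8a1 without Paro/Neo replicate 2. The overlap of both antibodies at Ryr2 was lost, with a count of 0, at −log10 q of at least 2 and at equal list length. Differences in mean peak number, Paro/Neo minus vehicle, reversed for Jph2 Meis1 to 1.5 with the second replicates exchanged as in the file names (−1.5 by the labels). At equal list length they reversed for Slc8a1 Meis1 to 1 and for Hoxb13 at Ryr2 to −0.5, Atp2a2 to 1 and Casq2 to −0.5. With a Hoxb13 library left out they ran from −11.5 to 117.5 at Ryr2, −1 to 10 at Casq2, −0.5 to 8.5 at Trdn, −2 to 12 at Jph2 and −0.5 to 5.5 at Camk2d, each negative only without Paro/Neo replicate 2. They ran from −8.5 to −0.5 at Atp2a2, −2.5 to −0.5 at Pln and 1 to 15 at Slc8a1. At equal list length the Meis1 difference was 0 at the other 5 genes with a Meis1 peak, and the Hoxb13 difference was 0 at Trdn, Jph2 and Camk2d. The cause was not tested. The number of genes called different was 0 in every setting, which 2 against 2 libraries fix (smallest exact permutation p 0.333). By the labels, same-numbered replicates share only a number. The correlation of their deviations was −0.027 for Meis1 and −0.172 for Hoxb13. With 2 libraries per group this cannot show whether they were paired. With the replicate block, whose smallest p is 0.5 over 4 orders, exact permutation p ran from 0.5 to 1 for both antibodies, as it did with the Hoxb13 numbers crossed, an alternative chosen after seeing the data, as were those of the counts over all 4 libraries. Depth limits what an absent peak shows, and no detection limit could be given.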

Other observations

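The GC content of the 6 promoter windows ran from 32.8% at Pln to 68.4% at Camk2d, with 63.2% at Ryr2, 62.0% at Jph2, 50.4% at Slc8a1 and 41.6% at Casq2, beside a median of 52.4% over all 32851 windows.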
